A study of Mus musculus with 4 samples.

Results

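The keratin genes KRT7, KRT8, KRT18, KRT19 and KRT81, which are 5 of the 36601 genes in the count tables, are described here in the human cells of xenograft tumors. They were chosen by their own UMI counts in these cells, since earlier results of the same counts showed KRT19, KRT18 and KRT8 in tumor cells, KRT7 in CD1C-positive cells and KRT81 in lymphoid cells. Their levels across these cell classes are therefore a description and carry no test. All 5 members had UMIs (unique molecular identifiers, 1 for each captured RNA molecule) in both reactions, and none was lost to a filter on low values in the levels by class.

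Keratins are the intermediate filament proteins of epithelial cells and assemble as pairs of a basic type II and an acidic type I chain. KRT7, KRT8 and KRT81 are type II chains and KRT18 and KRT19 are type I chains. KRT8 and KRT18 form the primary pair of simple epithelia, KRT7 and KRT19 are further simple-epithelial keratins used in pathology to recognise carcinoma, and KRT81 is a hair keratin. Blood-derived cells build their filaments from vimentin and are usually read as keratin-negative.

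The cells came from tumors of MDA-MB-231, an established human triple-negative breast carcinoma line, grown in the mammary fat pad of MISTRG mice, whose human cytokine genes (M-CSF, GM-CSF and IL-3) support human myeloid cells. All mice were irradiated as pups and engrafted with human fetal CD34+ stem cells, so tumor cells and immune cells were both human. The controls were 7 untreated mice, and 7 other mice received the drug maraviroc in the drinking water. Cell suspensions were marked with a hashtag antibody per mouse, and living human CD45+ cells were sorted and profiled in 2 droplet reactions, reaction 1 with 4 untreated and 3 maraviroc mice and reaction 2 with 3 and 4.

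The organism label of the samples is mouse while the counted genes are human. Reaction 1 kept 27645 cells with a median of 2752 UMIs, and reaction 2 kept 10161 cells with a median of 10742 UMIs, so levels are given separately for each. Hashtags called 10174 of the kept cells of reaction 1 and 1961 of reaction 2 as doublets. These stay in the levels by class, and comparisons over mice use the 19871 singlets alone. The reactions shared 136 barcodes, 105 of them among kept cells. Levels are CPM, the UMIs of a gene summed over a class and scaled to 1e+06 UMIs of that class, with exact Poisson intervals at 95%, and shares of cells have exact binomial intervals; both cover counting error only. A count of 0 is given with the level or share that 3 UMIs would make, which limits cells with a UMI and not cells that express the gene. The 3' assay counts 1 tag per molecule whatever the transcript length, so CPM is set side by side between genes. How well the reads of each gene were captured and mapped was not tested.

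Tumor cells were cells with UMIs of at least 2 of the 3 genes TM4SF1 (a tetraspan surface protein of many carcinomas), CAV1 (the main caveolar coat protein) and EGFR (the epidermal growth factor receptor), and at least 5 UMIs of them together. The gate found 139 kept cells in reaction 1 and 60 in reaction 2. Before the filters on cells it found 189 and 212. Of those, 35 and 129 lay above the upper limit on genes per cell, and 19 and 27 at or above the mitochondrial limit. Tumor cells and gated cells below are the kept ones unless another setting is named. Levels in reaction 2 therefore leave out the 129 gated cells with the most genes. Of the leukocyte markers checked, PTPRC, which encodes CD45, had a UMI in 67.6% of the gated cells of reaction 1 and in 18.3% of those of reaction 2. In reaction 1 the myeloid markers AIF1 and CD14 had a UMI in 68.3% and 54.0% of the gated cells. The NK markers GNLY and KLRF1 had one in 63.3% and 0.719%, and the T marker CD3D in 18.7%. The source of these transcripts was not tested. CD1C-positive myeloid cells were myeloid cells with a UMI of CD1C, the lipid-presenting molecule that marks type 2 conventional dendritic cells, and numbered 1313 and 794. Their other markers were mixed. Of the 7 genes of the type 2 dendritic cell list besides CD1C, 5 were higher than in other myeloid cells in both reactions. So were 5 of 6 genes of the Langerhans list, of which CDH1 rests on 14 and 17 UMIs. In turn 6 of 6 macrophage, 4 of 6 monocyte and 4 of 6 mature dendritic cell genes were lower. Of 6 genes of type 1 dendritic cells, 2 were higher and 0 lower. The share over all genes is not given here, so the counts do not set these lists apart. CLEC10A reached 111 and 134 CPM, against 20.2 and 21.8 CPM in other myeloid cells. FCER1A, also a marker of these dendritic cells, was at 3.36 and 3.17 CPM, against 0.857 and 0.344 CPM. The monocyte and macrophage markers stayed far above these in absolute level. CD14 stood at 889 and 647 CPM, against 1222 and 1047 CPM in other myeloid cells. VCAN was at 1201 and 1633 CPM, against 1165 and 1795 CPM, and C1QA at 906 and 633 CPM, against 1350 and 1194 CPM. The gate thus holds cells with strong monocyte and macrophage transcripts, and they are called CD1C-positive myeloid cells. Of them 879 and 367 cells held exactly 1 CD1C UMI and lay at the edge of the gate.

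KRT19 was the most abundant member in tumor cells. It stood at 1168 CPM (1106 to 1233) in reaction 1 and 1242 CPM (1174 to 1313) in reaction 2, and 91.4% and 91.7% of tumor cells had a UMI of it. One cell of reaction 1 held 106 KRT19 UMIs. KRT19 was 4.33 and 3.24 times the level of KRT18, the next member.

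The simple-epithelial pair followed. KRT18 was at 270 CPM (240 to 302) in reaction 1 and 384 CPM (346 to 424) in reaction 2. KRT8, its partner chain, was at 224 CPM (197 to 254) and 214 CPM (187 to 245), so the intervals of KRT18 and KRT8 overlapped in reaction 1 and not in reaction 2. KRT18 was found in 71.1% of the tumor cells of reaction 1 that had KRT8 and in 46.4% of those without it, and in 94.0% against 60.0% in reaction 2. Deeper cells show more of every gene, and the share of depth in this pairing was not tested.

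KRT7 came next in tumor cells, at 151 CPM (129 to 175) and 201 CPM (174 to 231). In reaction 2 its interval overlapped that of KRT8. KRT81 was lowest, at 44.6 CPM (33.1 to 58.8) and 20.04 CPM (12.2 to 30.9), in 22.3% and 15.0% of tumor cells. At least 3 of the 5 keratins were found together in 64.0% of the tumor cells of reaction 1 and 90.0% of those of reaction 2, and 6 and 5 cells held all of them. Of other myeloid cells, 0.935% and 0.254% held 3 or more.

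The tumor-gated cells with PTPRC had less of most members. In reaction 1 the 45 cells without a PTPRC UMI held KRT19 at 1597 CPM and KRT18 at 438 CPM, while the 94 cells with one held 916 and 170 CPM. In reaction 2 the 49 cells without it were at 1306 CPM of KRT19 and the 11 with it at 969 CPM. KRT81 went the other way in reaction 1, with 31.3 CPM without and 52.5 CPM with PTPRC. The part of joined cells in the values with PTPRC was not tested.

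**Figure D1:**
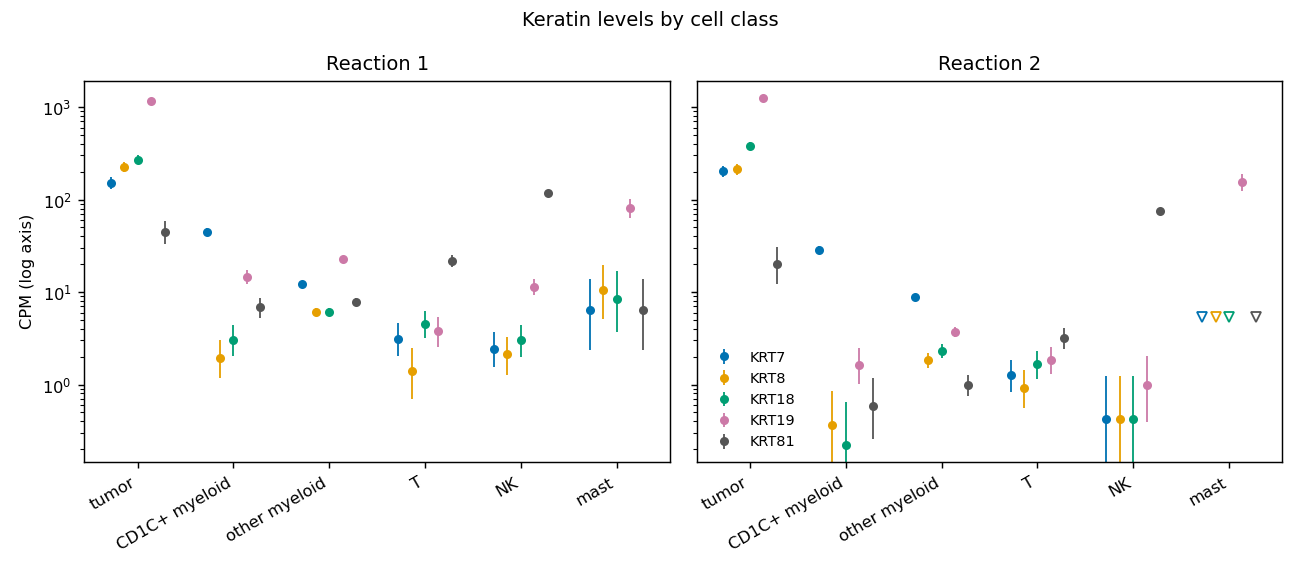
Level of each keratin, in CPM on a log axis, in 6 cell classes of each reaction. Points are summed UMIs with exact Poisson intervals at 95%, and open triangles mark a class at 0, drawn at the level that 3 UMIs would give. KRT19 led in tumor and mast cells, KRT7 in CD1C-positive myeloid cells and KRT81 in NK cells of both reactions, while in other myeloid cells KRT19 led in reaction 1 (22.5 CPM) and KRT7 in reaction 2 (8.86 CPM).

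In CD1C-positive myeloid cells KRT7 was the highest member. It reached 45.1 CPM (41.0 to 49.5) in reaction 1 and 28.5 CPM (25.7 to 31.5) in reaction 2. That was 3.73 and 3.22 times its level in other myeloid cells, 12.1 CPM (11.3 to 13.0) and 8.86 CPM (8.14 to 9.62). It was 14.3 and 22.4 times the level in T cells, 3.14 CPM and 1.27 CPM. Tumor cells still had 3.35 and 7.07 times as much. The counting intervals of tumor, CD1C-positive, other myeloid and T cells did not overlap, while those of T and NK cells did (2.45 CPM, 1.53 to 3.70, and 0.422 CPM, 0.0870 to 1.23, in NK cells). KRT7 was chosen for its levels in these classes, so this is a description. The intervals leave out the spread over mice. Over mice KRT7 ranged from 1.58 to 90.4 CPM in CD1C-positive and from 3.60 to 17.8 CPM in other myeloid cells, so the ranges overlapped.

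A KRT7 UMI was found in 11.8% of CD1C-positive cells of reaction 1 (median 5185 UMIs per cell) and in 1.36% of T cells (median 4105), set beside them for comparison. Whether the T cell share is background was not tested. The shares in reaction 2 were 16.6% (median 16461) and 0.965% (median 7004.5). With each cell thinned to 2000 UMIs, 6.24% and 4.66% of CD1C-positive cells, 2.46% and 1.59% of other myeloid cells and 0.575% and 0.366% of T cells had one. The order of the 3 classes was the same at equal depth. The thinning left out 127 CD1C-positive, 3257 other myeloid and 351 T cells of reaction 1 and 0, 22 and 32 of reaction 2.

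The KRT7 UMIs were gathered in few cells. In reaction 1, 46 of the 1313 CD1C-positive cells held 3 or more of them and with them 68.6% of the KRT7 UMIs of the class, and the highest cell held 43. In reaction 2, 46 of 794 cells held 71.0%, with 22 in the highest cell. Other myeloid cells had such cells too. In reaction 1, 46 of 13371 held 26.0% of the KRT7 UMIs of that class, with 9 in the highest cell. In reaction 2, 50 of 4727 held 51.9%, with 20 in the highest cell. In T cells the highest count was 3 in reaction 1 and 2 in reaction 2. Of all cells with a KRT7 UMI, 50.5% and 52.8% were other myeloid and 14.2% and 25.3% CD1C-positive. These classes made up 48.4% and 46.5%, and 4.75% and 7.81%, of the kept cells.

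The other members were low in the same cells. KRT19 was at 14.6 CPM (12.3 to 17.1) and 1.62 CPM (1.02 to 2.46), KRT81 at 6.82 and 0.590 CPM, KRT18 at 3.05 and 0.221 CPM and KRT8 at 1.93 and 0.369 CPM. Other myeloid cells held more KRT19 than that, 22.5 and 3.73 CPM, and T cells 3.77 and 1.86 CPM. Among hashtag singlets alone, KRT19 was at 3.57 CPM in the CD1C-positive cells of reaction 1, while KRT7 was at 50.2 CPM. In all CD1C-positive cells of reaction 1, the NK markers GNLY and KLRF1 had a UMI in 55.2% and 0.533%, and the T marker CD3D in 21.6%. The part of RNA from other cells in the low keratin levels was not tested. Of the UMIs of the 5 members, KRT7 made up 63.1% (59.4% to 66.7%) and 91.0% (87.9% to 93.6%) in CD1C-positive cells and 8.12% (6.98% to 9.38%) and 9.77% (8.52% to 11.1%) in tumor cells. The intervals of these classes, which cover counting error only, did not overlap in either reaction.

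**Figure D2:**
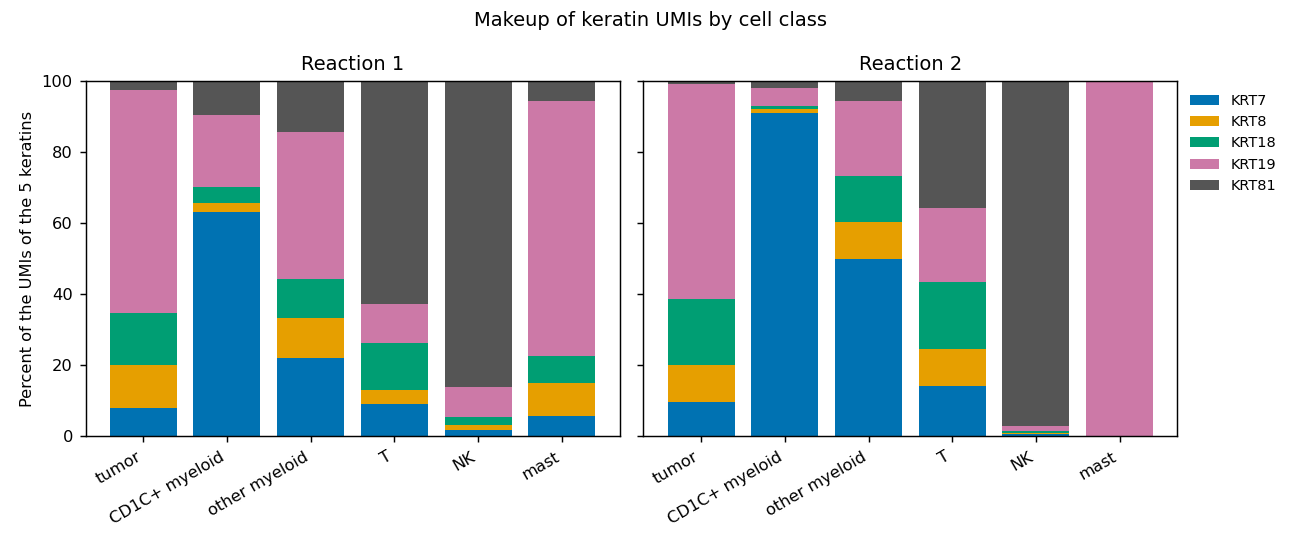
Percent of the UMIs of the 5 keratins that came from each, by cell class and reaction; each bar sums to 100%. KRT19 made up 62.9% and 60.3% of the tumor bars, KRT7 63.1% and 91.0% of the CD1C-positive bars and KRT81 86.0% and 97.1% of the NK bars.

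Tumor genes were low in CD1C-positive cells with and without KRT7, and they differed in direction. In reaction 1, TM4SF1 was at 2.01 CPM in the 155 cells with a KRT7 UMI and at 3.84 CPM in the 1158 without, and in reaction 2 at 0.421 and 0.537 CPM in 132 and 662 cells. CAV1 was higher with KRT7 in both reactions, at 6.03 against 4.68 CPM and at 0.842 against 0.447 CPM, and so was EGFR, at 1.34 against 1.20 CPM and at 1.68 against 0.179 CPM. Each of these values rests on at most 39 UMIs. In reaction 2, EGFR had 4 UMIs in 2 cells with KRT7 and 2 UMIs without it. CAV1 had 2 and 5 UMIs there, and TM4SF1 1 and 6. EGFR with KRT7 in reaction 1 had 2 UMIs, so these directions rest on few counts and were not tested. The level of KRT7 itself was 44.6 CPM in the 65 CD1C-positive cells of reaction 1 with any UMI of TM4SF1, CAV1 or EGFR and 45.1 CPM in the 1248 without, and 24.8 and 28.6 CPM in reaction 2. In other myeloid cells KRT7 was higher in CPM with these genes, at 41.4 CPM with and 10.3 CPM without them in reaction 1 and at 18.5 and 8.43 CPM in reaction 2. The share of these cells with a KRT7 UMI was 14.4% with and 3.52% without them in reaction 1. In reaction 2 it was 6.36% (3.22% to 11.1%) and 5.80%, and the 18.5 CPM rests on 11 of 173 cells. KRT19 was at 24.1 CPM with and 12.8 CPM without KRT7 in reaction 1 and at 0.842 and 1.79 CPM in reaction 2. It was found in 5.16% of cells with and 4.404% without KRT7 in reaction 1, and in 1.52% and 2.57% in reaction 2. Hashtag doublets were 40.6% of the cells with KRT7 and 43.1% of those without in reaction 1, and 26.5% and 18.7% in reaction 2.

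KRT7 stood higher the more CD1C a myeloid cell held. In reaction 1 it was 12.1 CPM in cells with 0 CD1C UMIs, 24.3 CPM with 1, 36.7 CPM with 2, 50.3 CPM with 3 to 5 and 147 CPM with 6 or more, the last in 81 cells. Reaction 2 gave 8.86, 15.3, 27.5, 34.8 and 51.0 CPM, the last in 159 cells. The median UMIs per cell rose over these bins too, from 3292 to 14837 in reaction 1 and from 12774 to 17616 in reaction 2. CPM divides by that depth, and its part in the order was not tested.

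**Figure D3:**
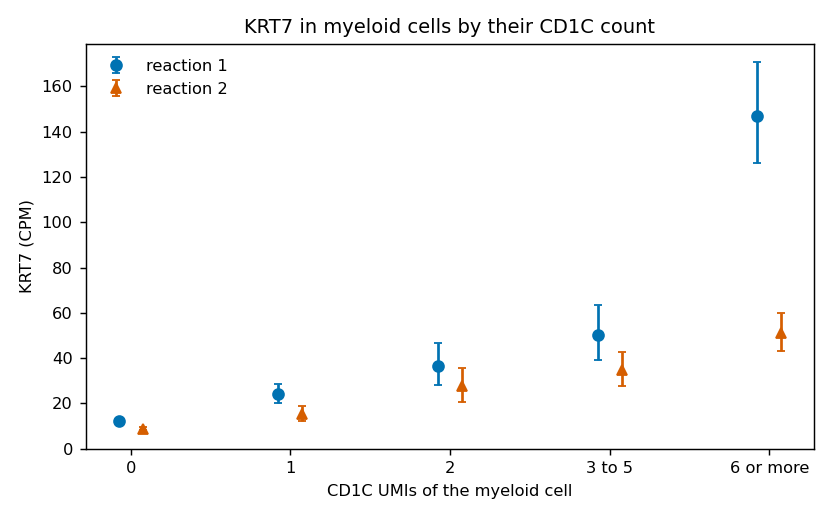
KRT7 in myeloid cells, in CPM with exact Poisson intervals at 95%, against the number of CD1C UMIs of the cell, for each reaction. KRT7 went from 12.1 and 8.86 CPM in cells with 0 CD1C UMIs to 147 and 51.0 CPM in cells with 6 or more.

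KRT7 was uneven over subsets of the CD1C-positive cells. Cells with a UMI of VCAN, a proteoglycan of monocytes, had 51.5 CPM (46.8 to 56.6) in reaction 1 and cells without it 7.02 CPM (3.36 to 12.9). Cells with C1QC, a complement subunit of macrophages, had 34.9 CPM, and cells without it 70.7 CPM. Cells with MKI67, a marker of cycling, had 22.9 CPM, and cells without it 55.1 CPM. Reaction 2 had the same order in all 3 splits, with 33.0 against 0.533 CPM for VCAN (1 UMI in the 115 cells without it), 21.3 against 38.0 CPM for C1QC and 11.8 against 33.4 CPM for MKI67. Other myeloid cells had the same order in CPM in all 3 splits, so it was not particular to CD1C-positive cells. KRT7 there was at 14.4 against 6.08 and 11.0 against 2.59 CPM for VCAN. For C1QC it was at 10.1 against 18.5 and 5.81 against 16.2 CPM, and for MKI67 at 9.85 against 13.1 and 4.80 against 10.0 CPM.

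In CPM, some other monocyte and dendritic markers went the opposite way to VCAN. With S100A12, a calgranulin of monocytes, KRT7 was at 30.1 CPM against 48.6 CPM without it in reaction 1 and at 22.1 against 30.6 CPM in reaction 2. With FCER1A or CLEC10A it was at 38.0 against 50.8 CPM and at 26.2 against 31.7 CPM. With CD1A, a lipid-presenting relative of CD1C, it was at 19.5 against 47.6 CPM and at 16.1 against 30.6 CPM. The intervals of S100A12 and of FCER1A or CLEC10A overlapped in reaction 2 and not in reaction 1. The share of cells with a KRT7 UMI had the reverse order for both. It was 14.8% with and 10.4% without FCER1A or CLEC10A in reaction 1, and 18.8% and 13.9% in reaction 2. For S100A12 it was 13.5% and 11.5%, and 17.8% and 16.3%. Cells with these markers were deeper, and the part of depth was not tested. For CD1A the share was lower with the marker in both reactions. In other myeloid cells KRT7 was higher in CPM with S100A12, at 15.6 against 11.5 and 17.0 against 6.35 CPM. With FCER1A or CLEC10A it was there at 14.7 against 11.8 and 8.93 against 8.84 CPM.

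KRT7 was not seen in CD1C-positive cells with CD207, the langerin of Langerhans cells. It had 0 UMIs in 30 cells of reaction 1 and in 12 cells of reaction 2, which allows up to 10% and 25% of cells with a UMI. CD1C-positive cells with LAMP3, a marker of mature dendritic cells, held 13.0 CPM (5.21 to 26.7) in 58 cells and 11.3 CPM in reaction 2, below the 46.9 and 30.2 CPM of those without it. The 13.0 CPM rests on 7 UMIs of 1 cell, so its interval understates the uncertainty. The 11.3 CPM rests on 14 UMIs in 8 of 67 cells.

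The other genes that went with KRT7 were tested within mice. The choice of KRT7 set whole classes against each other and did not split the CD1C-positive cells by KRT7. It did rest on CD1C and on the same KRT7 UMIs, so the value of CD1C below is a description. Counts of CD1C-positive singlets with and without a KRT7 UMI were summed for the 7 mice with at least 10 cells on each side (133 cells with and 619 without) and compared by edgeR's quasi-likelihood test with the mouse as a block. Of 6065 genes tested, 311 or 5.13% passed an adjusted p of 0.05, with 168 (2.77%) higher and 143 (2.36%) lower in cells with KRT7. Cells with KRT7 were deeper, with a median of 6777 against 4985 UMIs in reaction 1 and 17108 against 16358 in reaction 2. Without the block 155 passed, in reaction 1 alone 86 and in reaction 2 alone 61. With cells thinned to 2000 UMIs only 2 mice reached 10 cells on each side and 5 genes passed, CD52, S100A10, CRIP1, EMP3 and TIMP1, named after their values were seen. Leaving out maraviroc mouse 2 of reaction 2 left 111, and leaving out untreated mice 3 or 4 of reaction 1 or untreated mouse 1 of reaction 2 left 133, 169 or 170.

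The 8 genes most raised with KRT7 were TPPP3, HPGDS, LIPN, ARHGAP6, CH25H, AQP3, CRIP2 and FBP1. HPGDS, the hematopoietic prostaglandin D synthase, was at 31.5, 133 and 261 CPM (lowest, median and highest of 7 mice) with KRT7 and at 24.4, 39.7 and 60.7 CPM without, a log2 fold change of 1.83 (SE 0.31, edgeR adjusted p = 0.00439). The groups overlapped, all 7 mice had more with KRT7, and the call was lost in reaction 2 alone and after thinning. The call of FBP1, a phosphatase of gluconeogenesis, held in 13 of 14 alternatives. FBP1 was at 99.4, 397 and 864 CPM with and at 60.3, 154 and 242 CPM without KRT7 (log2 1.44, SE 0.16, edgeR adjusted p = 0.000205). AQP3, a channel for water and glycerol, rose by 1.46 (SE 0.21, edgeR adjusted p = 0.00115), and its call held in all 13 alternatives that tested it. LIPN, an acid lipase, rose by 1.71 (SE 0.22) and held in 12 of 12.

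The 8 genes most lowered were S100B, MERTK, C1orf21, CXCL10, CCSER1, SPP1, CST7 and NRG1. S100B, a calcium-binding protein, was at 0, 4.74 and 16.6 CPM with KRT7 and at 46.4, 151 and 299 CPM without, with no overlap, and a log2 fold change of -4.66 (SE 0.38, edgeR adjusted p = 3.32e-05). The call of S100B held in all 13 alternatives that tested it. The sums with KRT7 held 114394 to 473491 UMIs per mouse, so its level there rests on few UMIs and the size of its fold is uncertain. S100B passed the filter on low counts through the cells without KRT7. MERTK, C1orf21 and CST7 were as low with KRT7, with medians of 0, 4.74 and 4.11 CPM. SPP1, the secreted osteopontin of tumor macrophages, was at 109, 591 and 2069 CPM with and at 494, 3118 and 5809 CPM without KRT7 (log2 -1.99, SE 0.20, edgeR adjusted p = 0.000129). CXCL10, an interferon-induced chemokine, was at 10.7, 41.1 and 836 CPM with and at 246, 585 and 1050 CPM without (log2 -2.63, SE 0.54, edgeR adjusted p = 0.0132), lower in 6 of 7 mice. Its call was lost without maraviroc mouse 2 of reaction 2, in reaction 2 alone, without the block and after thinning, and that of SPP1 without the block and after thinning.

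**Figure D4:**
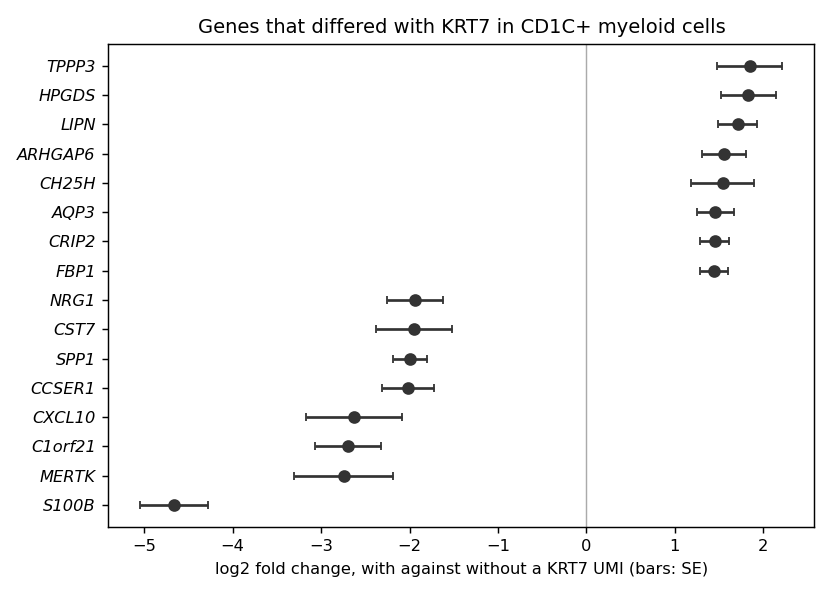
Log2 fold change between CD1C-positive myeloid cells with and without a KRT7 UMI, over 7 mice with the mouse as a block, for the 8 genes most raised and the 8 most lowered among those past the threshold; bars are SE. S100B lay farthest out, at -4.66, and TPPP3 was highest, at 1.85.

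Among the marker lists, the macrophage list fell with KRT7. Of 5 genes tested, 4 were lower and 0 higher, with a list median of -0.78 on the log2 scale against 0.02 over all genes tested. Of all genes tested, 2.36% were lower and 2.77% higher. C1QC fell by 1.67 and C1QB by 1.61 on the log2 scale, each lower in 7 of 7 mice, and C1QA and CD163 by 0.72 and 0.78. The call of C1QA held in 5 of 14 alternatives, that of CD163 in 4 of 14 and those of C1QB and C1QC in 12 of 14. All 4 lost their call after thinning, and C1QA, C1QB and C1QC lost it in reaction 2 alone. Over the alternatives C1QB ranged from -1.91 to -0.10 and C1QC from -2.06 to -0.72 on the log2 scale. MRC1, the mannose receptor, was at 0.30 and did not pass (edgeR adjusted p = 0.0844).

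Of 5 genes of the type 2 dendritic cell list, 1 was higher, the gate gene CD1C (log2 0.71, SE 0.14, edgeR adjusted p = 0.0105), which the gate itself selects on and which held in 10 of 14 alternatives. CLEC10A was at 0.15 (edgeR adjusted p = 0.715). Of 6 monocyte genes 1 was higher, VCAN (0.84, higher in 7 of 7 mice), while CD14 was at -0.56 (edgeR adjusted p = 0.0862). The call of VCAN held in 12 of 14 alternatives and was lost in reaction 2 alone and after thinning. None of 5 cycling genes, 2 genes of mature and 1 gene of type 1 dendritic cells passed. Of 6 leukocyte genes 1 was higher, CD52, a small surface glycoprotein (1.04, SE 0.12), in all 14 alternatives. No gene of the Langerhans list or of the tumor gate had counts enough to be tested.

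Over all genes tested, 2.77% were higher and 2.36% lower with KRT7. The list of 26 filament, desmosome and epithelial genes also holds ANXA2, S100A6, S100A10 and LGALS1, which are not filament or desmosome genes. Of this list, 11 of 26 could be tested and 5 were higher with KRT7, with 0 lower and a median of 0.40. Apart from VIM, those 5 were these added genes. They were VIM, the vimentin of mesenchymal and blood cells (log2 0.72, SE 0.09), S100A10, the partner of annexin A2 (1.19, SE 0.14), ANXA2, which encodes that annexin (0.45, SE 0.09), the calcium-binding S100A6 (0.80, SE 0.10) and the lectin LGALS1 (0.37, SE 0.08), each higher in 7 of 7 mice. S100A10 held in all 14 alternatives, VIM and S100A6 in 13, ANXA2 in 10 and LGALS1 in 7. VIM and S100A6 lost their call after thinning, and ANXA2 after thinning, without the block and in each reaction alone. DSC2, LMNA, DST, JUP, PLEC and PKP4 were tested and did not pass. KRT10, a keratin of most cell classes here, was at 0.14 (SE 0.19, edgeR adjusted p = 0.772) and was the one keratin besides KRT7 with enough counts for this test.

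KRT81 was highest in NK cells. It stood at 117 CPM (110 to 124) and 74.7 CPM (68.5 to 81.3) there, at 2.62 and 3.73 times the level in tumor cells. With no upper limit on genes, tumor cells of reaction 1 were at 112 CPM and NK cells at 115 CPM, so the size of the ratio in reaction 1 depends on the limit. T cells held 21.6 CPM (18.5 to 25.1) and 3.17 CPM (2.45 to 4.05). The part of RNA from other cells in the T cell level was not tested. A KRT81 UMI was found in 23.1% and 30.5% of NK cells (median 2195 and 7868 UMIs) and in 6.16% and 1.69% of T cells, and after thinning in 18.7% and 12.8% against 3.74% and 0.489%. The highest NK cell of each reaction held 10.

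KRT86, the neighbouring hair keratin of nearly the same sequence, was also higher in NK than in T cells. It was at 100 and 76.7 CPM in NK cells and at 25.8 and 7.08 CPM in T cells. The 3' reads of KRT81 and KRT86 may be split between the copies, so which gene a UMI came from is uncertain. KRT86 was found in 51.2% of NK cells with KRT81 and in 11.6% of those without in reaction 1, and in 67.6% and 20.9% in reaction 2. In tumor cells KRT81 had 5 and 4 UMIs for each KRT86 UMI, against 1.17 and 0.974 in NK cells. The tumor ratios rest on few UMIs, 50 of KRT81 and 10 of KRT86 in reaction 1 and 20 and 5 in reaction 2.

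NK and T cells were compared within mice. The choice of genes had not split the lymphoid cells, but it drew on the same UMIs. NK cells held 1053 of the 1351 lymphoid KRT81 UMIs in reaction 1 and 531 of 643 in reaction 2. The values below for KRT81, and for its near copy KRT86, are therefore not independent of that choice and are a description. KRT86 may share reads with KRT81, so it is not a separate result. In 14 of 14 mice KRT81 was higher in NK than in T cells. In NK cells it ranged from 51.4 to 220 CPM over the mice with a median of 74.7 CPM, and in T cells from 0 to 211 CPM with a median of 5.53 CPM. The ranges overlapped through 1 untreated mouse of reaction 1, at 211 CPM in 11 T cells. In the 13 mice with at least 10 cells of each class, edgeR with the mouse as a block gave a log2 fold change of 3.03 (SE 0.29, edgeR adjusted p = 1.65e-08) for KRT81 and 2.49 (SE 0.25, edgeR adjusted p = 5.71e-08) for KRT86. Of the 9111 genes tested, 38.5% were called, 18.9% as higher and 19.6% as lower in NK cells. Both calls held in all 18 alternatives, with log2 fold changes of 1.99 to 4.45 for KRT81 and 1.57 to 3.41 for KRT86. KRT81 and KRT86 passed the filter on low counts through their NK cells. In the fit with no such filter their log2 fold changes were 3.00 and 2.45. KRT10 was at 0.18 (SE 0.09, edgeR adjusted p = 0.106), and KRT7, KRT8, KRT18 and KRT19 did not pass the filter.

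Among the 1719 genes called higher in NK cells, the 8 most raised were ITGAD (log2 6.13), ADGRG3 (6.04), NCAM1, the CD56 marker (5.68), PPP1R9A (5.61), GAB1 (5.01), STYK1 (4.32), LINC00996 (4.11) and TRDC, the delta chain of the T cell receptor, which NK cells also transcribe (4.10), each higher in 13 of 13 mice. The 8 most lowered were FAAH2 (-5.53), FOXP3, the factor of regulatory T cells (-5.07), LINC02694 (-4.92), AC013652.1 (-4.61), CD28, a costimulatory receptor (-4.53), ADAM12 (-4.32), ZC3H12D (-4.29) and RTKN2 (-4.17), each lower in at least 12 of 13 mice.

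Mast cells held KRT19. It was at 80.8 CPM (63.6 to 101) in the 319 mast cells of reaction 1 and at 155 CPM (124 to 191) in the 78 of reaction 2, in 16.0% and 52.6% of cells. That was 3.59 and 41.4 times other myeloid cells. In reaction 2 the other 4 members had 0 UMIs in mast cells, which allows a share of up to 3.85% of cells with a UMI of each. In 3 of 14 mice mast cells held no KRT19 UMI, and in 11 of 14 the level was above that of other myeloid cells, with as few as 1 mast cell in a mouse.

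KRT19 was also spread over cells outside the gates. In reaction 1 unassigned cells held 1490 UMIs of it, at 67.7 CPM, and other myeloid cells 1445, against 1309 in the gated tumor cells. In reaction 2 the tumor cells held 1240 UMIs, other myeloid cells 239 and unassigned cells 144.

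The members made up 16211 of the 32709 UMIs of the 55 keratin genes listed, of which 35 had a UMI and 11 had at least 50. The highest of the others was KRT10, with 12185 UMIs, at 160 and 181 CPM in tumor cells, 103 and 94.0 CPM in NK cells and 45.2 and 32.3 CPM in CD1C-positive cells. KRT86 followed with 3290 UMIs and KRT1, a keratin of upper epidermis, with 635, highest in mast cells at 285 and 383 CPM. KRT5, a keratin of basal epithelium, had 172 UMIs and was highest in plasmacytoid dendritic cells, at 13.2 and 53.4 CPM. KRT80 had 53 and was highest in tumor cells, at 8.03 and 10.0 CPM.

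Of the 26 genes of the filament, desmosome and epithelial list, 19 were highest in tumor cells in both reactions, and 4 were highest in CD1C-positive cells. The classes compared were tumor, CD1C-positive, other myeloid and lymphoid cells. The share of all genes that were highest in tumor cells is not given here, so the count does not set this list apart. DSP, the desmosomal plaque protein, was at 75.9 and 188 CPM in tumor cells, and DST, a linker of filaments, at 648 and 1450 CPM. EPCAM was at 12.5 and 19.0 CPM and CDH1, the epithelial cadherin, had 0 UMIs in tumor cells, which allows up to 2.68 and 3.01 CPM. ELF3, an epithelial transcription factor counted among the 19, had 1 and 2 UMIs in tumor cells, and EVPL, also among them, had 2 and 7. The 4 were S100A10, LMNA, JUP and CDH1, of which CDH1, at 1.42 and 1.25 CPM in CD1C-positive cells, lay under the level that 0 UMIs allow in tumor cells. S100A10 was at 3896 and 3937 CPM in CD1C-positive cells and at 2208 and 2050 CPM in tumor cells. JUP, the plakoglobin of cell junctions, was at 50.3 and 57.6 CPM against 34.8 and 47.1 CPM.

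The genes most like each member were found by Pearson's r of log2(CPM + 1) over the 16 points of 8 classes in 2 reactions, among 19672 genes. The points share libraries and differ in depth, so r is a description. PLEC (0.97), ANXA2 (0.96), TCEA3 and HYAL2 were among the nearest to KRT7. KRT8 was nearest to VEGFC (0.99), SOX9, AC018978.1, NR2F1 and HMGA2, and KRT18 to PARVA (0.99), NUAK1, VEGFC, NR2F2 and ADAMTSL1. COL13A1 (0.98), RAI14, TGFB1I1, DCBLD2 and LINC00511 were nearest to KRT19. KRT81 was nearest to KRT86 (0.94), NUCKS1, PDHA1, PFDN6 and CDCA3, and its r with KRT7 was 0.22. KRT8 and KRT18 reached 0.98 with each other and KRT7 and KRT19 0.66.

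Maraviroc and untreated mice were compared to ask whether the drug moved the keratins. In CD1C-positive cells KRT7 was at 1.58, 18.2 and 90.4 CPM (lowest, median and highest of 7 untreated mice) and at 8.42, 27.1 and 52.3 CPM in 7 maraviroc mice. The untreated range enclosed the maraviroc range. The means were 39.5 ± 39.3 and 27.5 ± 15.4 CPM (SD, n = 7 each), and edgeR gave a log2 fold change of -0.64 (SE 0.56, edgeR adjusted p = 0.984). No gene of 8969 was called, 0% of them, while 411 or 4.58% had an unadjusted p under 0.05. DESeq2 called 1, the unnamed transcript AL162414.1, higher with maraviroc (log2 2.04, DESeq2 adjusted p = 0.000405); it was named after its values were seen. Within mice, KRT7 was higher in CD1C-positive than in other myeloid cells in 13 of 14, and the exception was the untreated mouse at 1.58 CPM, which rests on 1 UMI.

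The share of CD1C-positive cells with a KRT7 UMI was 13.1% ± 8.86 in untreated and 13.7% ± 2.80 in maraviroc mice (SD, n = 7 each). The difference of 0.648 points was within the spread of the mice. Over all 3432 ways to regroup the mice, the two-sided exact permutation p was 0.868, and it was 0.862 (exact) with mice regrouped within reactions. With cells thinned to 2000 UMIs the means were 5.56% and 3.07%, and the difference turned to -2.49 points (exact permutation p = 0.215). It also turned without untreated mouse 2 of reaction 1 (-1.26), untreated mouse 2 of reaction 2 (-0.61) or maraviroc mouse 2 of reaction 2 (-0.03).

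In other myeloid cells all 5 members were tested, and none passed. Their log2 fold changes were -0.83 for KRT19 (SE 0.57), -0.52 for KRT8 (SE 0.61), -0.16 for KRT7 (SE 0.37), -0.04 for KRT81 (SE 0.69) and -0.03 for KRT18 (SE 0.53), each at an edgeR adjusted p of 0.9997. For KRT19, 1 untreated mouse of reaction 1 stood at 32.9 CPM against 1.88 to 14.2 CPM in the other untreated mice. Without that mouse the log2 fold change of KRT19 was -0.25, and those of KRT8, KRT18, KRT81 and KRT7 turned to 0.33, 0.60, 0.18 and 0.03. edgeR called 0% of 12738 genes and DESeq2 called 0, with 376 or 2.95% at an unadjusted p under 0.05.

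In lymphoid cells KRT81 was at -0.59 (SE 0.68) and KRT86 at -0.51 (SE 0.61), both with an edgeR adjusted p of 0.999, and without untreated mouse 2 of reaction 1 they were at 0.11 and 0.12. KRT81 in NK cells was at 52.7, 72.2 and 220 CPM in untreated and at 51.4, 77.1 and 187 CPM in maraviroc mice (lowest, median and highest of 7), so the ranges overlapped. edgeR called 0% of 11626 genes and DESeq2 called 0, with 418 or 3.6% at an unadjusted p under 0.05.

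Tumor cells were not tested between treatments, since the rule asked for 3 mice of each treatment with at least 10 of them and 2 untreated and 3 maraviroc mice had as many. Every mouse had at least 1 tumor singlet, and 1 untreated mouse had no more. KRT19 was at 560, 1032 and 3409 CPM in untreated and at 644, 1024 and 1588 CPM in maraviroc mice, and KRT18 at 354, 429 and 616 CPM and at 202, 296 and 513 CPM, with overlap in both. KRT19 was higher in tumor cells than in other myeloid cells of the same mouse in 14 of 14 mice.

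**Figure D5:**
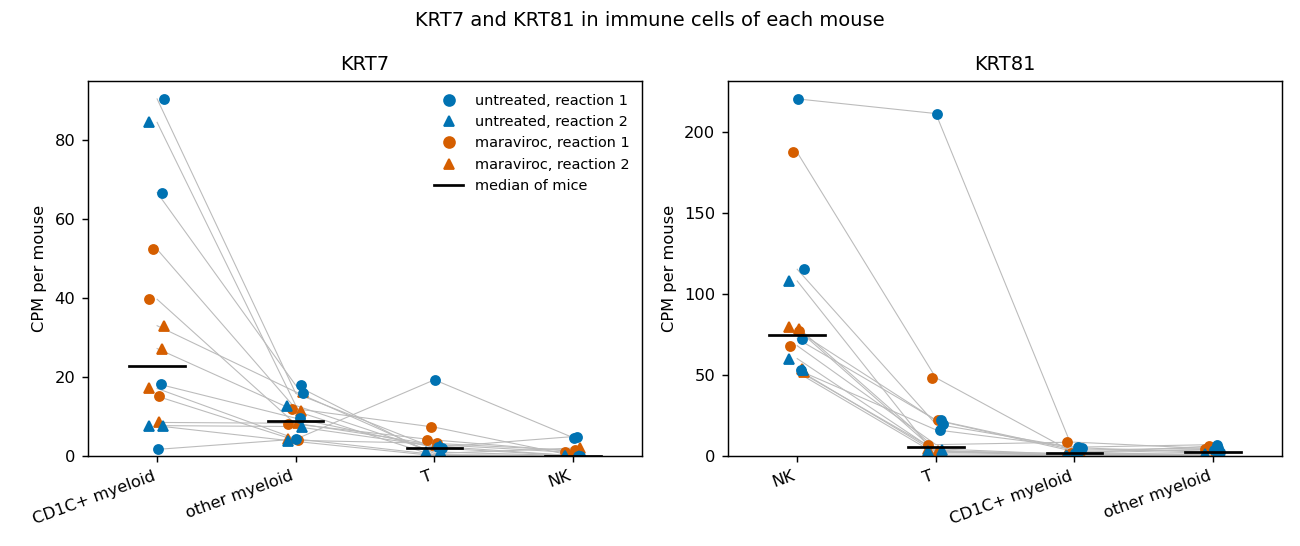
KRT7 and KRT81 in CPM in 4 immune cell classes of each of 14 mice; lines join a mouse, bars are medians, colour gives the treatment and shape the reaction. KRT7 was higher in CD1C-positive than in other myeloid cells in 13 of 14 mice and KRT81 higher in NK than in T cells in 14 of 14, while the treatments overlapped in each class.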

How the data were processed

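The deposited UMI counts were made by the authors with Cell Ranger 9.0.1 against GRCh38 and demultiplexed by them with Seurat 5.1.0, per the labels and the methods. Human genes and hashtag tags share each count table. Cells with above 600 and at most 6000 genes and a mitochondrial share under 12.5% were kept. Hashtags were called again with Seurat 5.3.0 (HTODemux, quantile 0.99), and each mouse's treatment comes from its hashtag's name among the deposited features, since the sample labels give none. Cells passing the tumor gate were set aside first. Others were called myeloid or lymphoid (T, NK or B) by at least 4 of 12 or 2 of 6 marker genes with a UMI and a lead of 0.2 in that share, and plasmacytoid dendritic or mast cells by a leading share of at least 0.5. The rest are called unassigned. No doublet caller other than the hashtags was run, and no correction for RNA from other cells was made.

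Counts of singlets were summed per mouse with at least 10 cells and tested with edgeR 4.0.16 (quasi-likelihood, TMM, filterByExpr, Benjamini-Hochberg over all genes tested, threshold 0.05), with DESeq2 1.42.0 as an alternative, in R 4.3.3. Intervals came from scipy 1.17.1. The tests were tried on simulated counts with 200 planted changes each, where they found most but not all of them and also made false calls. The split by KRT7 found 156 with 16 false calls, and NK against T cells found 197 with 14. The treatment comparisons found 177, 177 and 153 in CD1C-positive, other myeloid and lymphoid cells, with 5, 9 and 7 false calls. Named genes were the members, the fixed lists, the 5 highest other keratins, the 5 genes most like each member (1 of which is not reported here), and the 8 largest rises and falls at a mean log2 CPM of at least 5. The members and lists were chosen with earlier results of these data known. Each mouse counts as 1 replicate. Precision is set by the UMIs per class, and is low for tumor, mast and B cells. There 3 UMIs make 2.68 and 3.01 CPM in tumor cells, 3.19 and 5.40 CPM in mast cells and 11.6 and 2.82 CPM in B cells.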

Additional observations from a re-analysis of the deposited data

Results flagged for a closer look

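In 18 groups of 7 mice (or 6, where a mouse had too few cells), 9 values stood apart from the rest of their group by Dixon's criterion at 95%, which chance meets in about 1 of 20 groups. Several of these values share a mouse.

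KRT81 in NK cells was at 220 CPM in untreated mouse 2 of reaction 1, against 52.7 to 115 CPM in the other untreated mice, and at 187 CPM in maraviroc mouse 2 of reaction 1, against 51.4 to 79.5 CPM. KRT86 stood apart in the same mice, at 199.8 CPM against 41.8 to 90.7 CPM and at 177 CPM against 61.6 to 97.1 CPM. In T cells of the same untreated mouse KRT81 was at 211 CPM, which rests on 11 UMIs in 11 cells, against 2.79 to 22.1 CPM in the other untreated mice with at least 10 T cells.

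In other myeloid cells, untreated mouse 4 of reaction 1 held KRT19 at 32.9 CPM against 1.88 to 14.2 CPM, KRT8 at 12.6 CPM against 0.774 to 2.94 CPM and KRT18 at 9.74 CPM against 0.940 to 3.89 CPM. KRT8 was also apart in maraviroc mouse 3 of reaction 1, at 6.38 CPM against 0.455 to 2.37 CPM. No test of a difference between the reactions in the treatment effect passed, out of 9 (exact permutation tests, adjusted p = 0.952 in each).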

How the results depend on the processing

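Of 1143 values recomputed under an alternative setting, 1017 kept their direction and their side of the threshold or stayed within the spread. The causes of the shifts below were not tested. KRT19 in tumor cells of reaction 2 was at 876 CPM with no upper limit on genes, and KRT81 in those of reaction 1 at 112 CPM against 44.6 CPM. KRT19 in mast cells of reaction 2 was at 274 CPM after thinning against 155 CPM, and KRT7 in CD1C-positive cells of reaction 1 at 71.3 CPM with at least 2 CD1C UMIs against 45.1 CPM. Of 180 levels recomputed, 20 moved by more than the spread between mice.

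For the split of CD1C-positive cells by KRT7, 581 genes passed without the filter on low counts, 155 without the mouse block, 86 in reaction 1 alone, 61 in reaction 2 alone and 5 after thinning to 2000 UMIs, against 311. Leaving out 1 mouse gave 111 to 323. For NK cells against T cells, reaction 1 alone gave 1459 calls against 3506, and leaving out 1 mouse gave 3061 to 3799. For maraviroc in CD1C-positive cells, DESeq2 and the unfiltered fit each called 1 gene, AL162414.1, and leaving out 1 mouse gave 0 to 1 calls, with the 1 call reached without maraviroc mouse 4 of reaction 2.

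The treatment difference in the share of cells with KRT7 went to -2.49 points after thinning and ranged from -1.26 to 3.06 points when 1 mouse was left out. In other myeloid cells, the reaction as a block turned KRT18 to 0.23, KRT81 to 0.40 and KRT86 to 0.12 on the log2 scale. Leaving out 1 mouse gave -0.43 to 0.60 for KRT18, -0.31 to 0.46 for KRT81, -0.76 to 0.09 for KRT86, -1.06 to 0.33 for KRT8, -0.39 to 0.03 for KRT7 and -1.22 to -0.25 for KRT19, the last without untreated mouse 4 of reaction 1. For KRT7 in CD1C-positive cells it gave -0.84 to -0.33. In lymphoid cells it gave -1.32 to 0.11 for KRT81 and -1.18 to 0.12 for KRT86. Without untreated mouse 4 of reaction 1, KRT7 was at 0.027 and KRT86 at 0.086 in other myeloid cells. None of these was past the threshold.

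The treatment test in tumor cells and its alternatives were not run, since the rule asked for 3 mice of each treatment with at least 10 such cells and only 2 untreated mice had them. No paired analysis was possible because no label numbers the mice across treatments. Depth limits the low members: a level that rests on fewer than 3 counts was not told apart from 0.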
